A study of Xenopus laevis with 14 samples.

Results

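The Notch pathway and Hes genes were followed as 81 of the 26807 gene rows in the count table of stage 47 *Xenopus laevis* tadpole brains. Members were taken by symbol alone. Without the .L or .S ending, a symbol had to begin with notch1 to notch4, dll1 to dll4 or dllc, jag1 or jag2, hes and a digit, hey1, hey2 or heyl, maml1 to maml3, rbpj, numb or dtx1 to dtx4, or had to be lfng, mfng, rfng, adam10 or adam17. They comprised 7 receptor rows, 8 ligand rows, 3 Fringe rows, 4 ADAM protease rows, 8 RBPJ and Mastermind rows, 13 Numb and Deltex rows, 35 Hes rows and 3 Hey rows. *X. laevis* carries a pair of subgenomes, so that many genes have an L copy and an S copy (homeologs).

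The study modelled 2 developmental and epileptic encephalopathies. Whole-brain mRNA was sequenced from *ap3b2* CRISPants (4 libraries), *eef1a2* CRISPants (5 libraries) and controls (5 libraries). All 14 libraries came from embryos of 2 females, and every embryo had received Cas9 protein. The guide RNA targeted *ap3b2* in the first group and *eef1a2* in the second, and was a scrambled sequence without a target in the controls, which were otherwise wild type. The CRISPants were injected F0 animals and thus mosaic, with edited and unedited cells in the same brain. Each library pooled 6 brains, so differences between single animals could not be measured. As these were bulk samples, fewer cells of a type and less RNA per cell cannot be told apart. The sum of gene counts per library lay between 36563581 and 46745977 read pairs. On the first principal component, which held 48.6% of the variance over all genes, the library of *ap3b2* CRISPant replicate 4 and that of *eef1a2* CRISPant replicate 2 stood nearest to the controls within their groups. The targeted transcripts did not check the labels. In *ap3b2* CRISPants *ap3b2.S* changed by -0.07 on the log2 scale and *ap3b2.L* by -0.57, but *ap3b2.L* changed by -0.58 in *eef1a2* CRISPants too. In *eef1a2* CRISPants *eef1a2.L* changed by -0.06 and *eef1a2.S* by -0.01.

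Notch receptors are activated by Delta and Jagged ligands on a neighbouring cell. Ligand binding lets ADAM proteases and then gamma-secretase cut the receptor, and the freed intracellular domain joins RBPJ and Mastermind on DNA to switch on target genes. Among the targets are *hes* and *hey* genes, whose products are transcriptional repressors. In the vertebrate brain the pathway is known for keeping neural progenitors from differentiating, and in vessels for endothelial patterning.

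Levels are given as CPM (read counts scaled to a common library total) scaled by the TMM method, which corrects for library composition. Members that stayed at or under 1 CPM in at least 4 libraries of a comparison were left out of it, and 72 of the 81 members were tested in each comparison. The 9 others were *dtx3-like.L*, *dtx3l.S*, *hes5.9.S*, *hes5.10.L*, *hes5.10.S*, *hes7.S*, *hes7.2.L*, *hes7.2.S* and *rbpj.L*. The highest value among the 9 was 1.42 CPM, for *rbpj.L* in control replicate 5. Their exclusion means that counts below refer to the 72 tested members and not to all 81.

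In each CRISPant group, 21 of the 43 tested members outside the Hes genes were lower than in controls, and 21 did not pass the test. Hes genes were mostly higher. The Hes genes include *hes6*, which is known to oppose other Hes proteins, as described below. In *ap3b2* CRISPants, 21 of the 72 members were lower and 22 were higher at a false discovery rate (FDR) below 0.05 in edgeR's quasi-likelihood test. Over all 20800 genes tested in that comparison 22.8% were lower and 20.0% were higher. In *eef1a2* CRISPants, 21 members were lower and 25 were higher, against 21.4% lower and 18.8% higher among all 20682 genes tested. The members as a whole were therefore called somewhat more often than the average gene, with a wide split between roles. All 21 lower members in each comparison were among the 43 that are not Hes genes, and of these 43 only *rfng.L* was higher. Of the 29 tested Hes members none was lower, while 21 were higher in *ap3b2* CRISPants and 24 in *eef1a2* CRISPants. The median log2 fold change of the Hes members was 0.40 in either comparison, against 0.03 for all genes. For the other 43 members the median was -0.26 in *ap3b2* CRISPants and -0.34 in *eef1a2* CRISPants. Both comparisons used the same 5 control libraries, so their values are not independent of each other.

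**Figure D1:**
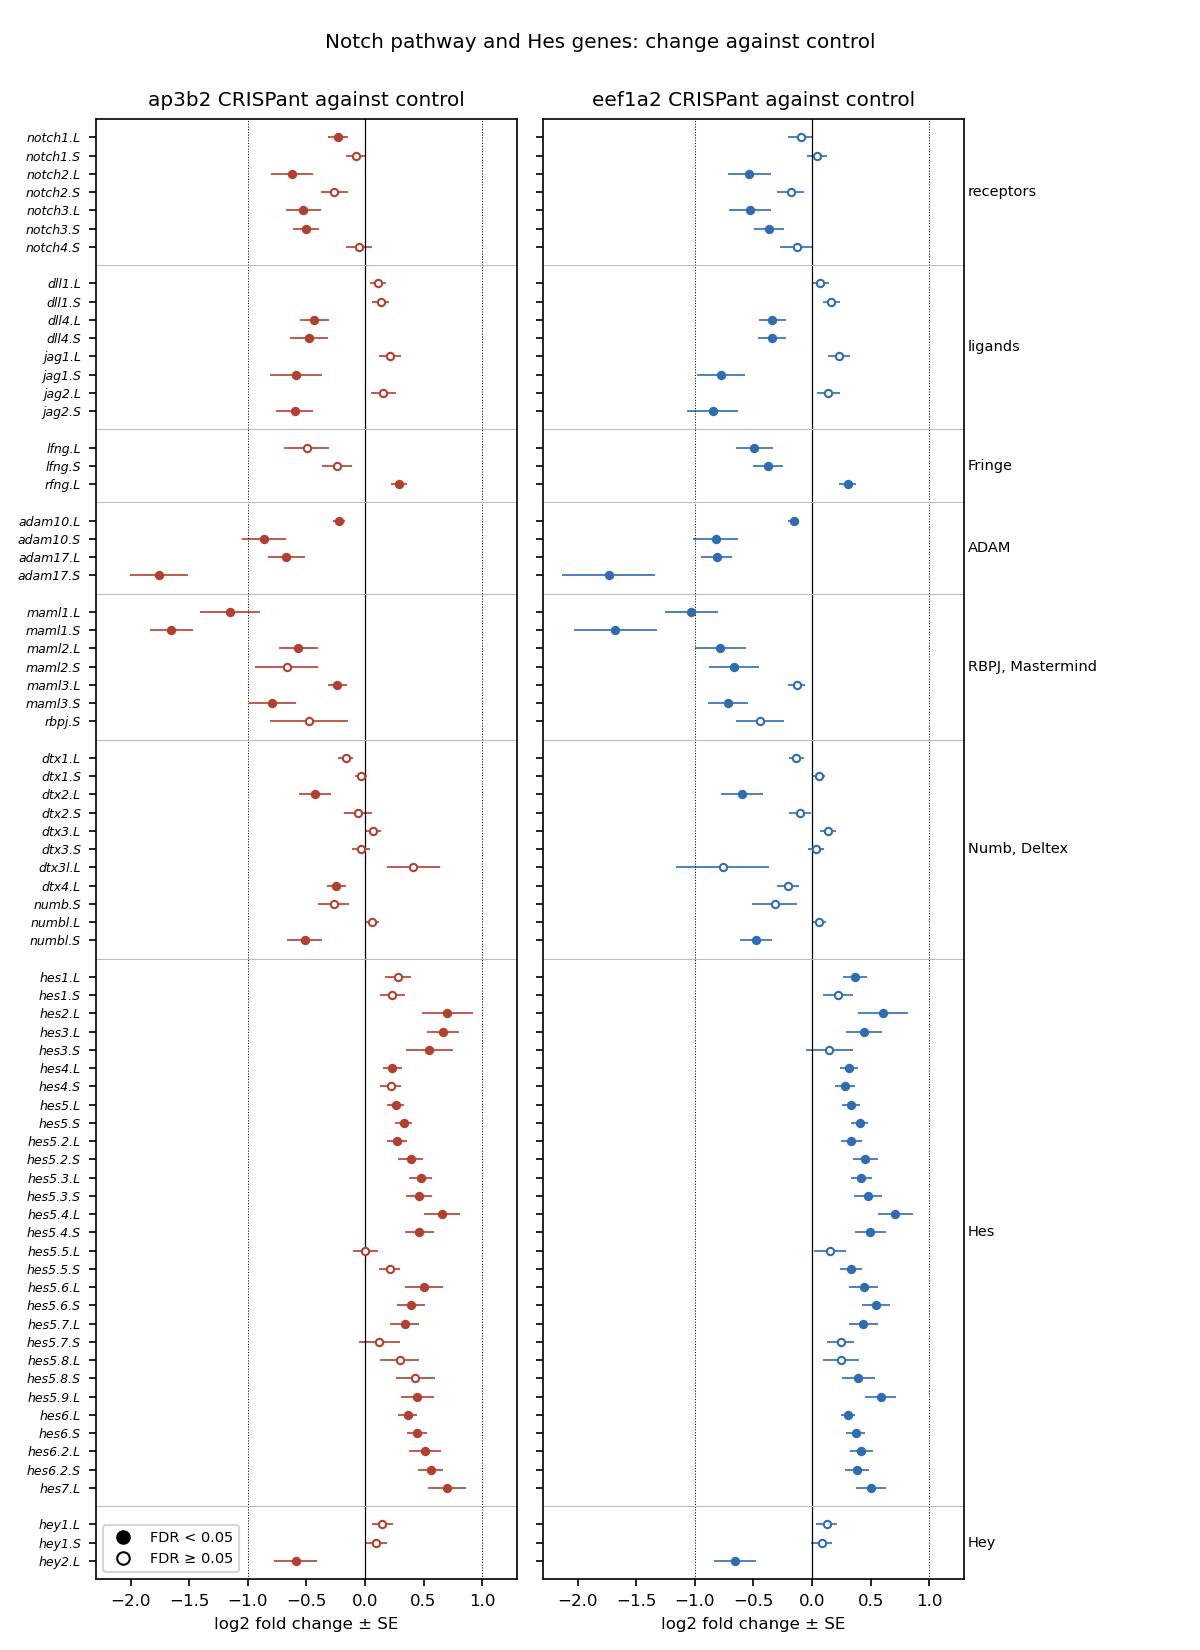
Log2 fold change (x axis, ± SE) of the 72 tested members, one per line and grouped by role, in *ap3b2* CRISPants (left) and *eef1a2* CRISPants (right) against controls; filled points passed an FDR of 0.05 and dotted lines mark a fold change of 2. All 29 Hes members lay above 0 in both panels, and 3 members lay beyond the left dotted line in each.

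Changes beyond a fold of 2 were few and all in 1 direction. The same rule with a fold change above 2 left 3 lower members and 0 higher in each comparison, namely *adam17.S*, *maml1.S* and *maml1.L*. Among all genes 5.11% were lower and 0.0769% were higher by this rule in *ap3b2* CRISPants, and 5.24% were lower and 0.0870% were higher in *eef1a2* CRISPants. The 3 members thus made up a share of the 72 close to that background. The next largest change was that of *adam10.S* in *ap3b2* CRISPants (-0.86) and of *jag2.S* in *eef1a2* CRISPants (-0.85).

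Among the ADAM proteases, which make the first cut in a ligand-bound receptor, all 4 copies fell in both CRISPant groups, and every CRISPant library was below every control library for each copy. Over all genes 14.4% were lower without overlap in *ap3b2* CRISPants and 10.0% in *eef1a2* CRISPants. *adam17.S* (chromosome 5S, 125323099 to 125370577, assembly v10.1) had 2.98, 4.05, 4.03 and 6.94 CPM in *ap3b2* CRISPants and 3.36, 9.22, 1.13, 4.51 and 4.65 CPM in *eef1a2* CRISPants, against 17.3, 18.3, 16.4, 9.86 and 14.1 CPM in controls. The highest CRISPant library, *eef1a2* replicate 2, and the lowest control library, replicate 4, came within 1 CPM of each other. Its log2 fold change was -1.76 ± 0.24 (SE) in *ap3b2* CRISPants (edgeR FDR 0.00292) and -1.74 ± 0.40 in *eef1a2* CRISPants (edgeR FDR 0.00966). *adam17.L* averaged 6.16 ± 1.67 CPM in *ap3b2* CRISPants and 5.62 ± 1.04 CPM in *eef1a2* CRISPants, against 9.79 ± 0.719 CPM in controls (SD). Its log2 fold change was -0.67 ± 0.16 in *ap3b2* CRISPants (edgeR FDR 0.0071) and -0.81 ± 0.13 in *eef1a2* CRISPants (edgeR FDR 0.0078).

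*adam10.S* had 21.0, 27.2, 27.5 and 46.9 CPM in *ap3b2* CRISPants and 26.4, 38.5, 18.7, 44.8 and 29.4 CPM in *eef1a2* CRISPants, against 52.4, 59.2, 59.2, 50.8 and 56.0 CPM in controls. Replicate 4 of each CRISPant group was the closest to the control range. The log2 fold change was -0.86 ± 0.18 in *ap3b2* CRISPants (edgeR FDR 0.0048) and -0.82 ± 0.19 in *eef1a2* CRISPants (edgeR FDR 0.010). The L copy moved much less. *adam10.L* averaged 117 ± 3.99 CPM in *ap3b2* CRISPants and 123 ± 3.67 CPM in *eef1a2* CRISPants, against 136 ± 4.55 CPM in controls, with a log2 fold change of -0.22 ± 0.05 and -0.16 ± 0.05. These small falls passed the test (edgeR FDR 0.0064 and 0.020) but not once the trend of change with gene span, described below, was removed (-0.04 and -0.01). In *eef1a2* CRISPants the call was also lost without control replicate 2 (-0.13), control replicate 3 (-0.14) or *eef1a2* replicate 3 (-0.13).

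The nuclear co-factors fell as well. RBPJ is the DNA-binding protein of the pathway, and Mastermind proteins bridge it and the receptor's intracellular domain to the transcription machinery. Of 7 tested rows 5 were lower and 0 higher in each comparison, with a median log2 fold change of -0.67 in *ap3b2* CRISPants and -0.72 in *eef1a2* CRISPants. The shares lower over all genes were 22.8% and 21.4%. *maml1.S* had 2.14, 2.00, 2.60 and 3.23 CPM in *ap3b2* CRISPants and 1.63, 5.12, 0.898, 2.35 and 2.22 CPM in *eef1a2* CRISPants, against 8.74, 8.59, 7.54, 5.73 and 8.48 CPM in controls. No CRISPant library reached the lowest control, although *eef1a2* replicate 2 came close to it. The log2 fold change was -1.65 ± 0.18 in *ap3b2* CRISPants (edgeR FDR 0.00292) and -1.68 ± 0.35 in *eef1a2* CRISPants (edgeR FDR 0.0083).

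*maml1.L* (chromosome 3L, 22839646 to 22865819) had 1.91, 3.43, 2.46 and 5.68 CPM in *ap3b2* CRISPants and 2.56, 5.74, 2.18, 4.23 and 3.75 CPM in *eef1a2* CRISPants, against 7.29, 7.84, 7.77, 6.40 and 8.18 CPM in controls. The groups again did not overlap. The log2 fold change was -1.15 ± 0.26 in *ap3b2* CRISPants (edgeR FDR 0.0057) and -1.03 ± 0.23 in *eef1a2* CRISPants (edgeR FDR 0.0090). Of the other Mastermind genes, *maml3.S* changed by -0.79 ± 0.20 in *ap3b2* CRISPants (edgeR FDR 0.0098) and -0.72 ± 0.17 in *eef1a2* CRISPants (edgeR FDR 0.011), and *maml2.L* by -0.57 ± 0.16 (0.017) and -0.78 ± 0.22 (0.017). In *ap3b2* CRISPants the *maml2.L* call was lost without replicate 1, 2 or 3 of that group (-0.53, -0.52 and -0.48). *maml2.S* passed in *eef1a2* CRISPants alone (-0.67 ± 0.21, edgeR FDR 0.028), with a value of -0.67 ± 0.27 in *ap3b2* CRISPants (edgeR FDR 0.061). It was lost without control replicate 2 (-0.49) or *eef1a2* replicate 3, 4 or 5 (-0.57, -0.60 and -0.65). *maml3.L* passed in *ap3b2* CRISPants alone (-0.24 ± 0.08, edgeR FDR 0.032), where the sign turned to 0.06 without the trend with span, and where leaving out any 1 library other than control replicate 4 or *ap3b2* replicate 3 or 4 ended the call (between -0.19 and -0.24). It was -0.13 ± 0.07 in *eef1a2* CRISPants (edgeR FDR 0.17). *rbpj.S*, the tested copy of RBPJ, averaged 1.35 ± 0.756 CPM in *ap3b2* CRISPants and 1.39 ± 0.228 CPM in *eef1a2* CRISPants, against 1.88 ± 0.470 CPM in controls, and did not pass (edgeR FDR 0.26 and 0.11). The *ap3b2* CRISPant libraries had 0.688, 1.06, 1.20 and 2.43 CPM, so that replicate 4 lay above every control. With replicates 1 to 3 alone *rbpj.S* changed by -1.06 in *ap3b2* CRISPants and passed (edgeR FDR 0.0031).

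Of the 7 Notch receptor rows, 4 were lower in *ap3b2* CRISPants and 3 in *eef1a2* CRISPants, and none was higher. Over all genes 22.8% and 21.4% were lower in these comparisons. *notch3.S*, one of the receptors of the brain and of vessel walls, had 35.6, 37.9, 37.6 and 42.1 CPM in *ap3b2* CRISPants and 47.7, 50.1, 35.5, 39.5 and 38.9 CPM in *eef1a2* CRISPants, against 59.0, 57.4, 53.3, 39.7 and 60.9 CPM in controls. Control replicate 4 lay inside the range of both CRISPant groups, and the other 4 controls lay above all CRISPant libraries. Its log2 fold change was -0.50 ± 0.11 in *ap3b2* CRISPants (edgeR FDR 0.0061) and -0.37 ± 0.13 in *eef1a2* CRISPants (edgeR FDR 0.039), where the call was lost without any 1 library other than control replicate 4 or *eef1a2* replicate 1 or 2 (between -0.30 and -0.36). *notch2.L* showed the same control library apart. It had 7.93, 8.73, 11.5 and 11.0 CPM in *ap3b2* CRISPants and 11.2, 13.7, 8.60, 10.5 and 8.21 CPM in *eef1a2* CRISPants, against 17.7, 15.5, 16.2, 9.46 and 16.1 CPM in controls. It changed by -0.62 ± 0.18 in *ap3b2* CRISPants (edgeR FDR 0.017) and -0.53 ± 0.18 in *eef1a2* CRISPants (edgeR FDR 0.036). The call was lost in *ap3b2* CRISPants without replicate 1 or replicate 2 of that group (-0.53 and -0.57), and in *eef1a2* CRISPants without any 1 library other than control replicate 4 or *eef1a2* replicate 2 (between -0.46 and -0.56).

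*notch3.L* was lower too, by -0.53 ± 0.15 in *ap3b2* CRISPants (edgeR FDR 0.016) and -0.53 ± 0.18 in *eef1a2* CRISPants (edgeR FDR 0.037), where the call rested on all libraries other than control replicate 4 and *eef1a2* replicates 2 and 4 (between -0.41 and -0.54 without 1 of them). *notch1.L*, a copy of the main receptor of neural progenitors, averaged 61.8 ± 3.11 CPM in *ap3b2* CRISPants and 67.9 ± 9.26 CPM in *eef1a2* CRISPants, against 72.1 ± 8.14 CPM in controls. Its change of -0.23 ± 0.09 in *ap3b2* CRISPants was the call nearest the threshold (edgeR FDR 0.049), and was lost without any 1 library other than control replicate 4 or *ap3b2* replicate 4 (between -0.18 and -0.23). In *eef1a2* CRISPants it was -0.10 ± 0.11 (edgeR FDR 0.49). *notch1.S*, *notch2.S* and *notch4.S* passed in neither comparison, with log2 fold changes between -0.26 and 0.04.

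The ligands split by gene and by copy, with 4 of 8 rows lower and 0 higher in each comparison. The 4 were *dll4.L*, *dll4.S*, *jag1.S* and *jag2.S* in both. Over all genes 22.8% were lower in *ap3b2* CRISPants and 21.4% in *eef1a2* CRISPants. *jag2.S* had 4.64, 4.82, 5.06 and 6.19 CPM in *ap3b2* CRISPants and 4.75, 6.83, 3.44, 3.85 and 3.05 CPM in *eef1a2* CRISPants, against 8.68, 7.13, 8.67, 5.56 and 9.07 CPM in controls. Here as well control replicate 4 overlapped the CRISPants, and no other control did. The log2 fold change was -0.60 ± 0.16 in *ap3b2* CRISPants (edgeR FDR 0.012) and -0.85 ± 0.22 in *eef1a2* CRISPants (edgeR FDR 0.013). *jag1.S* changed by -0.77 ± 0.20 in *eef1a2* CRISPants (edgeR FDR 0.014) and by -0.59 ± 0.22 in *ap3b2* CRISPants (edgeR FDR 0.049), where leaving out any 1 library other than control replicate 4 or *ap3b2* replicate 4 ended the call (between -0.44 and -0.62).

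The *dll4* copies, which encode a Delta ligand known from the tips of growing vessels, fell together. *dll4.L* averaged 9.28 ± 1.59 CPM in *ap3b2* CRISPants and 9.94 ± 1.47 CPM in *eef1a2* CRISPants, against 12.47 ± 1.03 CPM in controls, a change of -0.43 ± 0.12 and -0.34 ± 0.12 (edgeR FDR 0.016 and 0.036). *dll4.S* changed by -0.48 ± 0.16 in *ap3b2* CRISPants and -0.34 ± 0.12 in *eef1a2* CRISPants (edgeR FDR 0.033 and 0.040). These calls were fragile. *dll4.L* lost its call in *ap3b2* CRISPants without *ap3b2* replicate 2 (-0.38), and in *eef1a2* CRISPants without any 1 library other than control replicate 4 or *eef1a2* replicate 2 or 4 (between -0.27 and -0.35). *dll4.S* lost it in *ap3b2* CRISPants without any 1 library other than control replicate 3 or *ap3b2* replicate 4 (between -0.39 and -0.48), and in *eef1a2* CRISPants without any 1 other than control replicate 3 or *eef1a2* replicate 2 or 4 (between -0.29 and -0.34). The endothelial marker list moved alongside. Of its 26 tested rows in *ap3b2* CRISPants 14 were lower and 1 was higher, and of 22 in *eef1a2* CRISPants 11 were lower and 1 was higher. Over all genes 22.8% were lower and 20.0% higher in *ap3b2* CRISPants, and 21.4% and 18.8% in *eef1a2* CRISPants. The summed level of this list ranged from 200.5 to 266 CPM in *ap3b2* CRISPants and 195 to 265 CPM in *eef1a2* CRISPants, against 240 to 286 CPM in controls, with no row at 0 throughout. Its part in the *dll4*, *notch3* and *hey2* values was not tested. The Delta ligand *dll1*, expressed by newborn neurons, passed in neither group, and its S copy averaged 59.3 ± 4.16 CPM in *ap3b2* CRISPants and 60.8 ± 4.07 CPM in *eef1a2* CRISPants, against 53.8 ± 4.36 CPM in controls (edgeR FDR 0.16 and 0.081).

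**Figure D2:**
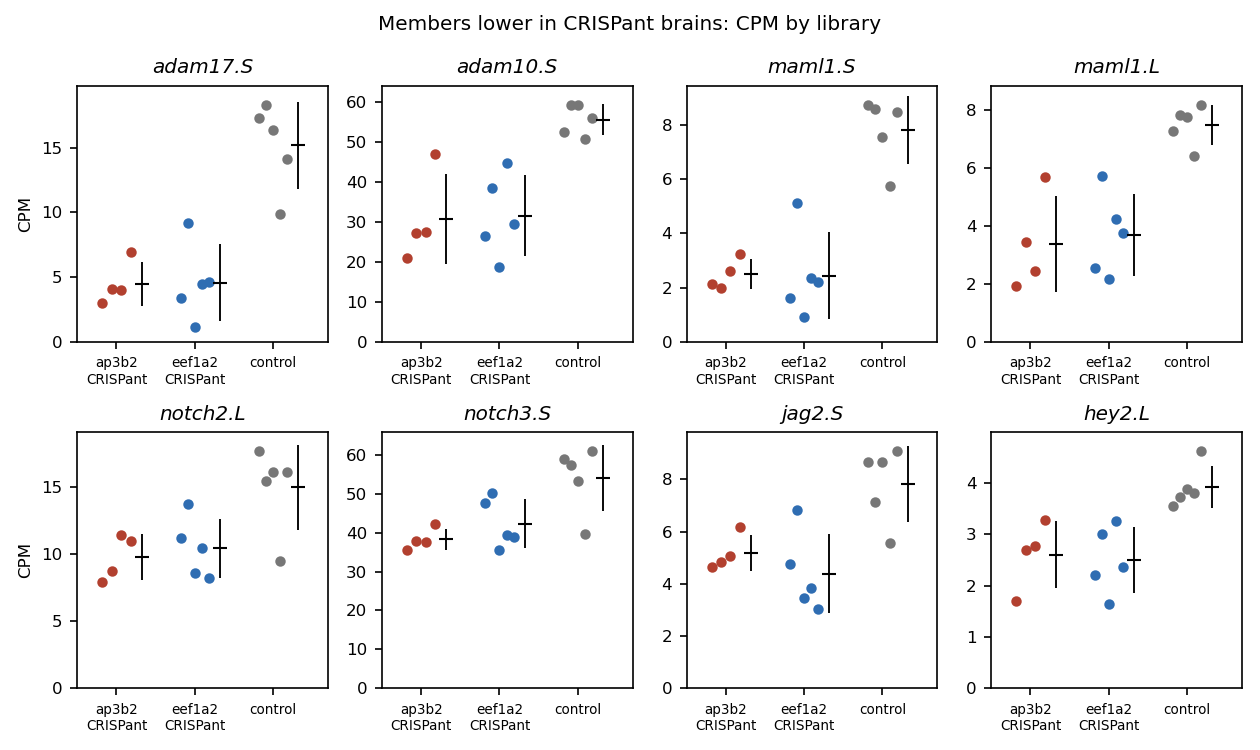
CPM (y axis, from 0) of 8 members that were lower in CRISPant brains, by group; each point is a library of 6 pooled brains and the bar is the mean ± SD. For *adam17.S*, *adam10.S*, *maml1.S*, *maml1.L* and *hey2.L* no CRISPant library reached the lowest control, whereas control replicate 4 overlapped the CRISPants for *notch2.L*, *notch3.S* and *jag2.S*.

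Fringe enzymes add sugars to the Notch receptor and so tune which ligand it answers to. *rfng.L* rose in both groups. It had 46.6, 43.1, 44.6 and 38.9 CPM in *ap3b2* CRISPants and 46.2, 41.4, 49.8, 37.3 and 44.7 CPM in *eef1a2* CRISPants, against 37.9, 33.6, 33.4, 35.9 and 35.4 CPM in controls. Only *eef1a2* replicate 4 fell inside the control range. The log2 fold change was 0.29 ± 0.07 in *ap3b2* CRISPants (edgeR FDR 0.0077) and 0.30 ± 0.08 in *eef1a2* CRISPants (edgeR FDR 0.012). *lfng.L* fell by 0.49 ± 0.16 and *lfng.S* by 0.38 ± 0.13 on the log2 scale in *eef1a2* CRISPants (edgeR FDR 0.028 and 0.039). The *lfng.L* call was lost without control replicate 5 (-0.42) or *eef1a2* replicate 1 (-0.44), and the *lfng.S* call without any 1 library other than control replicate 4 or *eef1a2* replicate 2 or 4 (between -0.29 and -0.39). In *ap3b2* CRISPants their values were -0.50 ± 0.19 and -0.24 ± 0.13, which did not pass (edgeR FDR 0.055 and 0.15).

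Numb and Numb-like proteins hold Notch back in one daughter of a dividing progenitor, and Deltex proteins are ubiquitin ligases that bind the receptor. Of these 11 tested rows 3 were lower in *ap3b2* CRISPants (*numbl.S*, *dtx2.L* and *dtx4.L*), 2 were lower in *eef1a2* CRISPants (*numbl.S* and *dtx2.L*), and none was higher. The lower counts were near the shares over all genes, 22.8% in *ap3b2* CRISPants and 21.4% in *eef1a2* CRISPants. *numbl.S* averaged 14.3 ± 3.72 CPM in *ap3b2* CRISPants and 14.7 ± 2.91 CPM in *eef1a2* CRISPants, against 20.3 ± 2.03 CPM in controls, a change of -0.52 ± 0.15 and -0.48 ± 0.13 (edgeR FDR 0.018 and 0.017), and without *ap3b2* replicate 1 or 2 the first was lost (-0.40 and -0.47). *dtx2.L* changed by -0.43 ± 0.14 in *ap3b2* CRISPants and -0.60 ± 0.18 in *eef1a2* CRISPants (edgeR FDR 0.026 and 0.022). It was lost in *ap3b2* CRISPants without control replicate 2 or 5 or *ap3b2* replicate 1, 2 or 3 (between -0.36 and -0.42), and in *eef1a2* CRISPants without control replicate 2 (-0.52). The *dtx4.L* call was lost without control replicate 1, 2 or 5 or *ap3b2* replicate 1, 2 or 3 (between -0.21 and -0.24). *dtx1.S*, the most counted row of this role, averaged 109 ± 3.79 CPM in *ap3b2* CRISPants and 117 ± 6.84 CPM in *eef1a2* CRISPants, against 111 ± 3.60 CPM in controls, with log2 fold changes of -0.04 ± 0.05 and 0.06 ± 0.05 that passed in neither (edgeR FDR 0.57 and 0.44).

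Several Hes proteins are repressors that the pathway switches on in progenitors. In contrast, *hes6* is known from frog and mouse to oppose other Hes proteins and to favour neuronal differentiation. All 29 tested Hes members lay above 0 in both comparisons, by 0.004 to 0.70 in *ap3b2* CRISPants and by 0.15 to 0.71 in *eef1a2* CRISPants. The lowest value, that of *hes5.5.L* in *ap3b2* CRISPants, changed sign with scaling by library size alone and in DESeq2, which left 28 of 29 above 0. In that comparison 28 also lay above 0 without control replicate 2 or 4 or *ap3b2* replicate 4, and 27 without *ap3b2* replicate 3. With replicates 1 to 3 alone 28 lay above 0 in either comparison. Removal of the trend with gene span is described below. Every fold change was under 2. In *ap3b2* CRISPants 15 of the 29 had all CRISPant libraries above all controls, against 12.0% of all genes, and in *eef1a2* CRISPants 14 did, against 9.09% of all genes. Summed over the 35 Hes rows, the level was 618 ± 55.2 CPM in *ap3b2* CRISPants and 623 ± 61.7 CPM in *eef1a2* CRISPants, against 480.3 ± 19.3 CPM in controls, and the lowest CRISPant library (537 CPM) was above the highest control (507 CPM). The sum includes *hes6.L* and *hes6.S*. These averaged 102 and 124 CPM in *ap3b2* CRISPants, 99.0 and 119 CPM in *eef1a2* CRISPants, and 79.2 and 91.1 CPM in controls.

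*hes6.S* was the Hes row with the most counts, at 144, 131, 117 and 106 CPM in *ap3b2* CRISPants and 121, 95.2, 130.1, 121 and 128 CPM in *eef1a2* CRISPants, against 87.5, 89.7, 88.0, 102 and 88.4 CPM in controls. Only *eef1a2* replicate 2 and control replicate 4 crossed. Its log2 fold change was 0.44 ± 0.09 in *ap3b2* CRISPants (edgeR FDR 0.0036) and 0.37 ± 0.08 in *eef1a2* CRISPants (edgeR FDR 0.0086). The L copy, *hes6.L*, did not overlap between CRISPants and controls, and rose by 0.36 ± 0.08 and 0.31 ± 0.06 (edgeR FDR 0.0052 and 0.0078). The *hes6.2* copies rose as well, by between 0.38 and 0.56.

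The *hes5* genes encode effectors of Notch in neural progenitors and are multiplied in this species. *hes5.3* to *hes5.10* lie side by side within 102 kb of chromosome 7L (104019671 to 104122090) and within 101 kb of chromosome 7S (86958724 to 87059343), with 8 genes in each cluster. Of the 13 cluster genes tested, 8 rose in *ap3b2* CRISPants (5 of 7 on 7L and 3 of 6 on 7S) and 10 rose in *eef1a2* CRISPants (5 of 7 and 5 of 6). Over all genes 20.0% and 18.8% were higher. Among all genes under 5000 bases, as all of these are, 40.3% and 39.3% were higher. The cluster genes resemble each other, so that reads could have been shared or lost between neighbours. *hes5.4.L* had the largest change in this cluster. It had 7.44, 8.17, 7.66 and 5.13 CPM in *ap3b2* CRISPants and 7.01, 5.14, 8.75, 7.64 and 8.33 CPM in *eef1a2* CRISPants, against 3.81, 4.21, 4.86, 5.18 and 4.27 CPM in controls. Only *ap3b2* replicate 4 and *eef1a2* replicate 2 fell below the highest control. The log2 fold change was 0.66 ± 0.15 in *ap3b2* CRISPants (edgeR FDR 0.0066) and 0.71 ± 0.15 in *eef1a2* CRISPants (edgeR FDR 0.0083). *hes5.5.L* in the same cluster did not pass in either group, at 8.41 ± 0.589 CPM in *ap3b2* CRISPants and 9.35 ± 1.79 CPM in *eef1a2* CRISPants, against 8.35 ± 0.836 CPM in controls.

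The rows named *hes5* without a number ending had 50.8, 44.9, 49.2 and 45.1 CPM (*hes5.S*) in *ap3b2* CRISPants and 48.4, 45.5, 53.9, 47.5 and 56.8 CPM in *eef1a2* CRISPants, against 38.9, 33.9, 39.9, 38.8 and 36.8 CPM in controls. All CRISPant libraries lay above all controls, as they did for *hes5.L*. *hes5.S* rose by 0.33 ± 0.07 in *ap3b2* CRISPants (edgeR FDR 0.0044) and 0.41 ± 0.07 in *eef1a2* CRISPants (edgeR FDR 0.0078).

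*hes7.L*, known from mouse and fish for the segmentation clock, had 10.5, 10.4, 7.69 and 6.36 CPM in *ap3b2* CRISPants and 8.45, 6.22, 9.29, 6.96 and 7.40 CPM in *eef1a2* CRISPants, against 5.45, 5.77, 4.43, 5.73 and 5.38 CPM in controls. No control library reached a CRISPant library. It rose by 0.70 ± 0.16 in *ap3b2* CRISPants (edgeR FDR 0.0060) and 0.50 ± 0.13 in *eef1a2* CRISPants (edgeR FDR 0.012). *hes3.L* averaged 3.53 ± 0.457 CPM in *ap3b2* CRISPants and 3.04 ± 0.657 CPM in *eef1a2* CRISPants, against 2.21 ± 0.0342 CPM in controls. Its change was 0.67 ± 0.13 in *ap3b2* CRISPants (edgeR FDR 0.0039) and 0.44 ± 0.15 in *eef1a2* CRISPants (edgeR FDR 0.036), where the call was lost without any 1 library other than *eef1a2* replicate 2 or 4 (between 0.34 and 0.48). *hes2.L*, near the detection limit, averaged 1.65 ± 0.476 CPM in *ap3b2* CRISPants and 1.56 ± 0.451 CPM in *eef1a2* CRISPants, against 1.01 ± 0.185 CPM in controls. It changed by 0.70 ± 0.22 and 0.61 ± 0.21 (edgeR FDR 0.024 and 0.039). The call was lost in *ap3b2* CRISPants without control replicate 5 (0.63) or *ap3b2* replicate 1 (0.49), and in *eef1a2* CRISPants without any 1 library other than control replicate 1 or *eef1a2* replicate 2 or 4 (between 0.45 and 0.63).

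*hes1* and *hes4*, which are classical targets in neural and neural crest progenitors, were among the smaller changes. *hes1.L* averaged 12.0 ± 1.02 CPM in *ap3b2* CRISPants and 12.8 ± 0.929 CPM in *eef1a2* CRISPants, against 9.87 ± 1.33 CPM in controls, and passed in *eef1a2* CRISPants (0.36 ± 0.10, edgeR FDR 0.018) but not in *ap3b2* CRISPants (0.28 ± 0.11, edgeR FDR 0.065). *hes4.L* averaged 43.0 ± 4.68 CPM in *ap3b2* CRISPants and 45.7 ± 5.06 CPM in *eef1a2* CRISPants, against 36.4 ± 2.18 CPM in controls, and rose by 0.23 ± 0.08 and 0.32 ± 0.08 (edgeR FDR 0.038 and 0.012). The first of these calls was lost without control replicate 1, 2 or 3 or *ap3b2* replicate 1, 2 or 3 (between 0.20 and 0.24). *hes1.S* passed in neither *ap3b2* nor *eef1a2* CRISPants (0.23 and 0.22, edgeR FDR 0.098 and 0.18). *hes4.S* did not pass in *ap3b2* CRISPants (0.22, edgeR FDR 0.081) but did in *eef1a2* CRISPants (0.28, edgeR FDR 0.022). That call was lost without control replicate 1 or *eef1a2* replicate 5 (between 0.24 and 0.25).

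**Figure D3:**
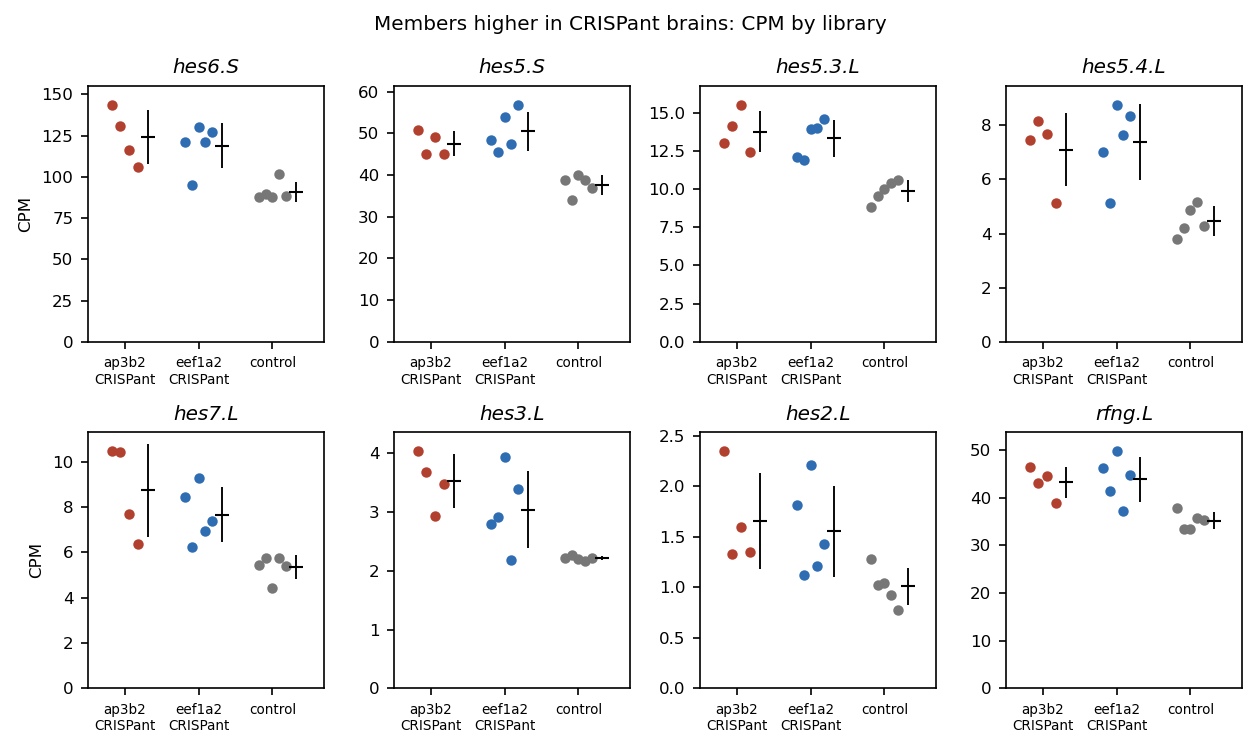
CPM (y axis, from 0) of 7 Hes members and *rfng.L*, all higher in CRISPant brains, by group; each point is a library and the bar is the mean ± SD. For *hes5.S*, *hes5.3.L* and *hes7.L* every CRISPant library lay above every control.

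The Hey genes, which encode related repressors best known from heart and vessels, did not rise with the Hes genes. *hey2.L* had 1.71, 2.69, 2.77 and 3.28 CPM in *ap3b2* CRISPants and 2.21, 3.00, 1.64, 3.27 and 2.36 CPM in *eef1a2* CRISPants, against 3.56, 3.73, 3.89, 3.81 and 4.62 CPM in controls. All CRISPant libraries were below all controls. It changed by -0.59 ± 0.18 in *ap3b2* CRISPants (edgeR FDR 0.022) and -0.66 ± 0.18 in *eef1a2* CRISPants (edgeR FDR 0.016). The *ap3b2* call was lost without control replicate 5 (-0.52) or *ap3b2* replicate 1 or 2 (-0.43 and -0.61). *hey1.L* and *hey1.S* passed in neither comparison. *hey1.S* averaged 29.8 ± 1.48 CPM in *ap3b2* CRISPants and 29.7 ± 2.29 CPM in *eef1a2* CRISPants, against 27.8 ± 3.42 CPM in controls (edgeR FDR 0.41 and 0.49).

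The L and S copies of a gene did not always move alike. The log2 ratio of L to S was tested for the 31 members with both copies, with limma over all homeolog pairs, a test chosen after the values had been seen. The ratio differed in 6 of the 31 pairs in *ap3b2* CRISPants, against 25.6% of 7673 pairs, and in 9 of the 31 in *eef1a2* CRISPants, against 26.6% of 7620 pairs. These shares were below the background in *ap3b2* CRISPants and near it in *eef1a2* CRISPants. In *ap3b2* CRISPants the S copy was the lower one in all 6 (*adam10*, *adam17*, *jag1*, *jag2*, *maml3* and *numbl*). In *eef1a2* CRISPants it was the lower one for these 6 and *maml1*, and the L copy was for *dtx1* and *dtx2*. None of the 13 Hes pairs differed in either comparison, and both copies of all 13 lay above 0. As an example chosen after its values were seen, the *jag2* ratio of L to S counts was 4.02, 3.09, 3.44 and 2.54 in *ap3b2* CRISPants and 3.40, 2.64, 5.26, 3.88 and 5.07 in *eef1a2* CRISPants, against 1.91, 2.18, 1.61, 2.27 and 1.74 in controls. All CRISPant libraries were above all controls, a log2 change of 0.74 ± 0.15 in *ap3b2* CRISPants (limma FDR 0.0063) and 1.03 ± 0.19 in *eef1a2* CRISPants (limma FDR 0.0072). Reads that fit both copies could not be separated here.

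**Figure D4:**
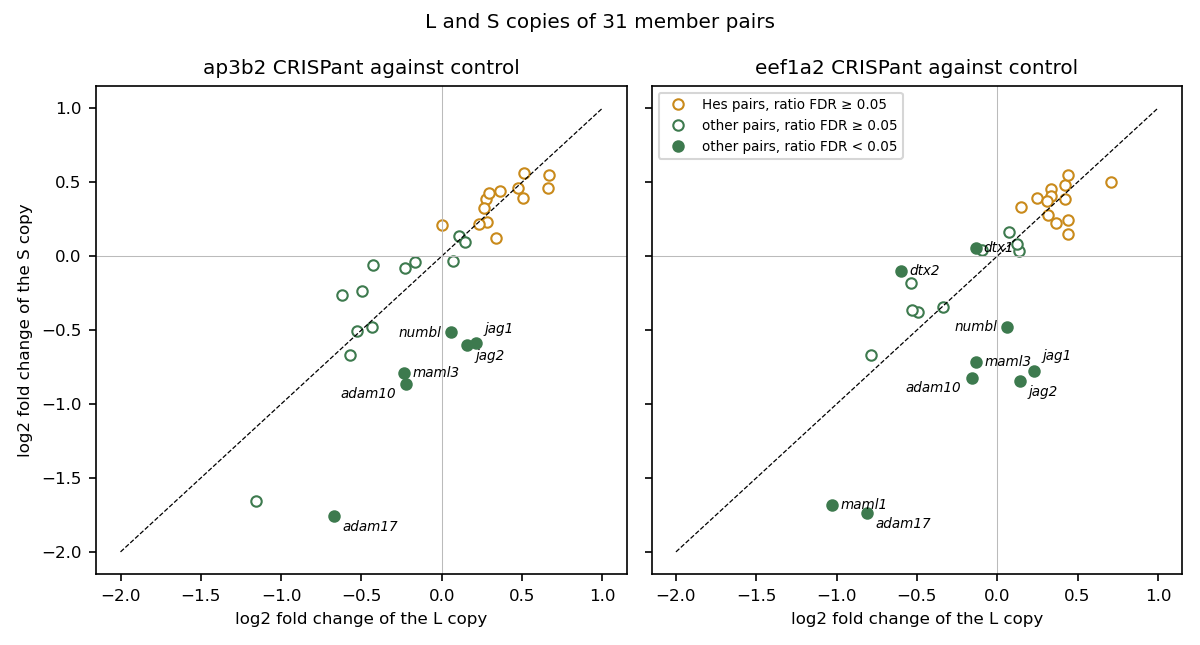
Log2 fold change of the S copy (y axis) against that of the L copy (x axis) for 31 member pairs in *ap3b2* CRISPants (left) and *eef1a2* CRISPants (right) against controls; the dashed line marks equal change and filled, named points are pairs whose L to S ratio differed at an FDR below 0.05. The 13 Hes pairs all sit at the upper right, and 6 pairs on the left and 9 on the right are filled.

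Gene span, the distance from a gene's start to its end, moved with the fold change in all genes and also separated the roles. The Hes genes are short, with a median span of 2182 bases over the 29 rows with a position, against 54297 bases for the receptors and 92520 bases for the RBPJ and Mastermind genes. Among all genes under 5000 bases, 40.3% were higher in *ap3b2* CRISPants and 39.3% in *eef1a2* CRISPants, with a median log2 fold change of 0.24 and 0.22. Of the 25 tested members under 5000 bases 15 were higher in *ap3b2* CRISPants and 18 in *eef1a2* CRISPants, with a median of 0.39 and 0.38. Among all genes over 50000 bases 40.3% were lower in *ap3b2* CRISPants and 36.0% in *eef1a2* CRISPants, and 9 of the 14 members of that span were lower in each. When each library's trend with span was removed, 14 of the 43 other members were lower in *ap3b2* CRISPants and 16 in *eef1a2* CRISPants, 4 and 5 were higher, and *adam17.S*, *maml1.S* and *maml1.L* kept changes beyond a fold of 2. That fit called 21.3% of all genes lower and 19.1% higher in *ap3b2* CRISPants, and 21.1% and 18.3% in *eef1a2* CRISPants.

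The Hes calls were reduced more. With the trend removed, 9 of 29 Hes members were higher in *ap3b2* CRISPants and 11 in *eef1a2* CRISPants, with 26 and 27 above 0. No span was given for 5 of these (*hes5.L*, *hes5.S*, *hes6.L*, *hes6.S* and *hes7.L*), which were thus not adjusted. Of the 24 with a span 4 were higher in *ap3b2* CRISPants in place of 16, and 6 in *eef1a2* CRISPants in place of 19. Their median was 0.21 in both, in place of 0.41. Over all genes that fit called 19.1% higher in *ap3b2* CRISPants and 18.3% in *eef1a2* CRISPants. The *ap3b2* count was thus near the share over all genes. The 4 in *ap3b2* CRISPants were *hes3.L*, *hes5.3.L*, *hes5.4.L* and *hes6.2.S*. Because nearly all Hes genes are short, the role of a gene and its span cannot be told apart for most of this change.

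**Figure D5:**
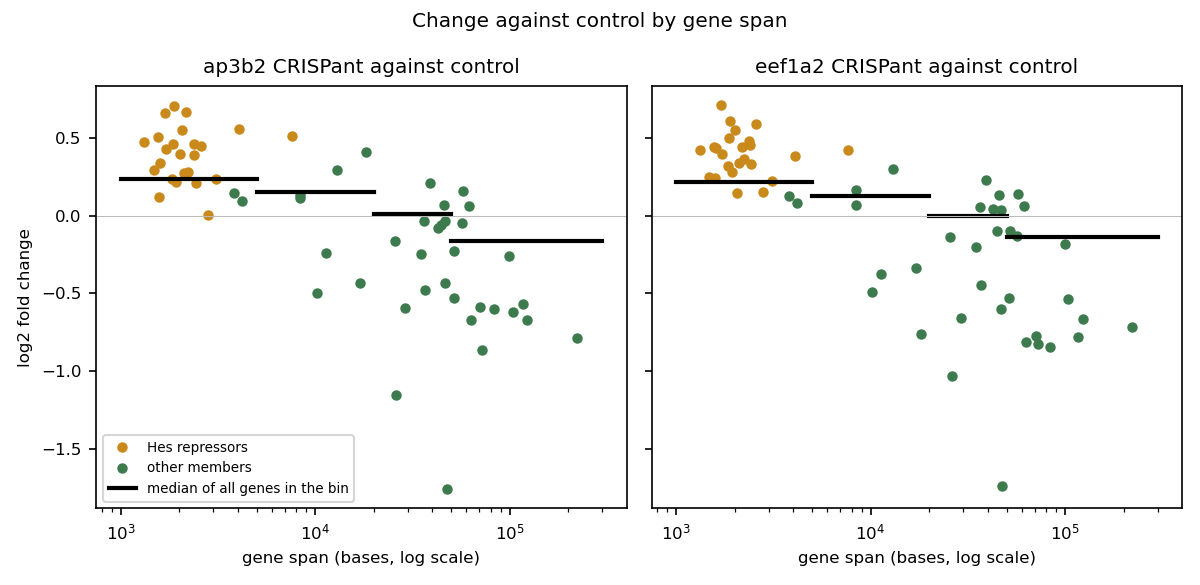
Log2 fold change (y axis) of the tested members with a position against gene span in bases (x axis, log scale), for *ap3b2* CRISPants (left) and *eef1a2* CRISPants (right) against controls; black bars are the medians of all genes in 4 span bins. The Hes members cluster at the short end, where the median of all genes is 0.24 and 0.22, and most of the other members at the long end lie below 0.

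Further genes of the pathway, taken as lists by function, moved in either direction or did not pass. Their counts stand against the 22.8% lower and 20.0% higher of all genes in *ap3b2* CRISPants and the 21.4% lower and 18.8% higher in *eef1a2* CRISPants, and several lists were near these shares. Of 10 rows for gamma-secretase, which makes the second cut, 2 were lower and 3 higher in each comparison. The subunit gene *psenen.S* changed by 0.64 in *ap3b2* CRISPants and 0.46 in *eef1a2* CRISPants. Of 9 rows for ubiquitin ligases that activate ligands 2 were lower in each, *neurl1b.S* (-1.49 and -1.68) and *mib1.S* (-1.21 and -1.19). Of 18 rows for receptor degradation and trafficking 8 were lower and 1 higher in *ap3b2* CRISPants, and 7 were lower and 1 higher in *eef1a2* CRISPants. Among 10 rows of related ligands 5 were lower and 1 higher in each, with *dlk1.S*, which encodes a Delta-like protein, at -1.14 and -1.36.

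Of 13 rows for receptor glycosylation and processing 2 were lower and 3 higher in each comparison. Of 32 rows for co-activators and co-repressors of RBPJ 5 were lower and 5 higher in *ap3b2* CRISPants, against 6 lower and 3 higher in *eef1a2* CRISPants, and the acetyltransferase gene *kat2b.L* was at -1.39 and -1.41. Of 5 rows of the Groucho family 2 were higher in each, both copies of *tle5*. A list of proneural and related neuronal factors, which also holds *id* genes, inhibitors of proneural factors, had 10 of 31 rows higher in each comparison, with 2 lower in *ap3b2* CRISPants and 1 in *eef1a2* CRISPants. Of the 10 higher rows 2 were *id* genes, both copies of *id2*, and 8 were among the 25 other rows. *neurog3.S* rose by 0.91 in *ap3b2* CRISPants and 0.82 in *eef1a2* CRISPants on the log2 scale.

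The markers of cell types did not move as 1 block. Over all genes 22.8% were lower and 20.0% higher in *ap3b2* CRISPants, and 21.4% and 18.8% in *eef1a2* CRISPants. The neuron marker counts below were near these shares. Of 24 radial glia and progenitor rows, 10 were higher and 2 lower in *ap3b2* CRISPants, and 8 were higher and 2 lower in *eef1a2* CRISPants, with *fabp7.L* at 0.45 and 0.37 and *nes.L* at -0.74 and -0.75. The summed level of that list ranged from 3107 to 3315 CPM in *ap3b2* CRISPants and 2914 to 3304 CPM in *eef1a2* CRISPants, against 2890.4 to 3315 CPM in controls. Neuron markers, all 34 rows of which were tested, were 9 lower and 7 higher in *ap3b2* CRISPants, and 8 lower and 6 higher in *eef1a2* CRISPants. Oligodendrocyte markers were 7 lower and 0 higher of 20 in *ap3b2* CRISPants, and 7 lower and 2 higher in *eef1a2* CRISPants. Of 5 tested microglia and leukocyte rows none passed in either comparison. Of 14 tested cilium rows 1 was lower and 1 higher in *ap3b2* CRISPants, and 0 were lower and 1 higher in *eef1a2* CRISPants. The summed level of that list, which also holds choroid plexus genes, ranged from 293 to 371 CPM in *ap3b2* CRISPants and 330.0 to 410 CPM in *eef1a2* CRISPants, against 284 to 320.1 CPM in controls, so that the *eef1a2* CRISPants did not overlap the controls. Of its 14 tested rows 12 lay above 0 in *ap3b2* CRISPants and 13 in *eef1a2* CRISPants.

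Of 3 tested epidermis rows 2 were higher in *ap3b2* CRISPants and 3 in *eef1a2* CRISPants, against 20.0% and 18.8% of all genes. The summed level of the 14 epidermis rows ranged from 8.23 to 45.4 CPM in *ap3b2* CRISPants and 10.02 to 38.0 CPM in *eef1a2* CRISPants, against 6.43 to 11.4 CPM in controls, with *itln1.L* at 0 in all libraries. The highest values were those of *ap3b2* replicate 4 (8.23 to 14.5 CPM in the rest of its group) and *eef1a2* replicate 2 (10.02 to 18.8 CPM in the rest). These libraries had the lowest Hes medians of their groups, given below (0.15 and 0.20). The source of these transcripts was not tested. The part of these cell type markers in the Hes values was not tested.

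Between the CRISPant groups no member differed. Of the 72 members tested in *ap3b2* against *eef1a2* CRISPants 0 passed an FDR of 0.05 in edgeR or DESeq2, against 0.00% of all 20584 genes, and the lowest edgeR FDR of any gene was 0.999993. At an unadjusted p below 0.05, 1 member passed, against 179 of all genes. That member was *dtx3l.L*, at 1.53, 2.24, 2.32 and 1.25 CPM in *ap3b2* CRISPants against 1.36, 1.41, 0.565, 0.557 and 0.191 CPM in *eef1a2* CRISPants, where the ranges overlapped. No member separated the groups without overlap, against 0.272% of all genes in each direction. The difference on the log2 scale, *ap3b2* over *eef1a2*, was -0.03 ± 0.47 for *adam17.S*, 0.02 ± 0.41 for *maml1.S*, -0.13 ± 0.36 for *maml1.L* and 0.06 ± 0.11 for *hes6.S*. The standard errors show how large a difference could have been missed for the first of these.

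Single libraries carried much of the spread within the CRISPant groups. Relative to the control mean on a log2(CPM + 0.5) scale, the median Hes member stood at 0.38, 0.38, 0.47 and 0.15 in the *ap3b2* CRISPant libraries and at 0.29, 0.20, 0.51, 0.33 and 0.52 in the *eef1a2* CRISPant libraries, against -0.08 to 0.06 in controls. The median of the other tested members was -0.44, -0.39, -0.27 and -0.06 in *ap3b2* CRISPants and -0.24, -0.12, -0.46, -0.13 and -0.37 in *eef1a2* CRISPants, against -0.14 to 0.06 in controls. *ap3b2* replicate 4 and *eef1a2* replicate 2, which stood nearest to the controls over all genes, were nearest here too. When each library was left out in turn, 10 of the 21 lower calls and 12 of the 21 Hes calls in *ap3b2* CRISPants passed every time, as did 11 of the 21 lower calls and 20 of the 24 Hes calls in *eef1a2* CRISPants. The share of calls over all genes that passed every time was not counted. These counts therefore cannot show whether the member calls were more or less stable than those of other genes. Without *ap3b2* replicate 4 the *ap3b2* counts became 25 lower and 28 higher, against 27.5% of all genes lower and 26.7% higher. Without *ap3b2* replicate 1 or 2 the lower count was 11 or 10, and without *ap3b2* replicate 3 the higher count was 14, of which 13 were Hes. The shares over all genes in these refits were 17.3% or 16.9% lower, and 15% higher. In *eef1a2* CRISPants the lower count was 12 without control replicate 2 and 13 without *eef1a2* replicate 3, and the number beyond a fold of 2 was 5 without *eef1a2* replicate 2. The lower shares over all genes were 16.3% without control replicate 2 and 17.8% without *eef1a2* replicate 3.

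Replicates 4 and 5 stood apart from replicates 1 to 3 on the second principal component in controls and in *eef1a2* CRISPants. In *ap3b2* CRISPants, which have no replicate 5, replicate 4 alone stood apart. That component held 15.4% of the variance over all genes. A fit with a term for this split gave 23 lower members and 20 Hes members higher in *ap3b2* CRISPants, and 21 lower and 24 Hes higher in *eef1a2* CRISPants. It called 24.3% of all genes lower and 21.2% higher in *ap3b2* CRISPants, and 23.3% and 21.9% in *eef1a2* CRISPants. With replicates 1 to 3 alone, *ap3b2* CRISPants had 29 lower members (none Hes) and 24 Hes members higher, against 30.3% of all genes lower and 27.2% higher. *adam17.S*, *maml1.S* and *maml1.L* then changed by -2.26, -1.91 and -1.58. In *eef1a2* CRISPants 7 members were lower and 3 higher, 2 of them Hes, against 5.54% of all genes lower and 9.53% higher. There the calls of *adam17.S* (-1.93, edgeR FDR 0.068), *maml1.S* (-1.71, edgeR FDR 0.069) and *maml1.L* (-1.14, edgeR FDR 0.063) were lost. Replicates 4 and 5 alone leave 1 *ap3b2* CRISPant library and were not tested by themselves.

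Scaling by library size alone left 23 members lower and 14 higher in *ap3b2* CRISPants, 13 of these 14 being Hes members, and called 26.0% of all genes lower. Higher calls then made up 32.3% of all calls over all genes, in place of 46.7%. In *eef1a2* CRISPants that scaling gave 24.6% lower and 11.2% higher over all genes, with 20 of 29 Hes members higher, and higher calls made up 31.3% of all calls, in place of 46.7%.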

How the data were processed

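Counts per gene of 14 libraries were deposited without normalization. The authors made stranded mRNA libraries, used STAR for alignment against the v10.1 assembly of *X. laevis*, and obtained reverse-stranded gene counts of fragments from featureCounts. The deposited log2 CPM table for 21328 genes was used only to check the counts. It equals edgeR's log2 CPM (TMM, prior count 2). The series text gives 5 replicates per condition, and 4 *ap3b2* libraries were analysed here.

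Samples were grouped by their labels. In edgeR 4.0.16 (R 4.3.3), the libraries of the groups compared were fitted alone on the whole table, genes at or under 1 CPM in at least 4 of those libraries were removed, and quasi-likelihood F test p-values were adjusted (Benjamini-Hochberg) over all genes tested. Standard errors were derived from the F statistic. L to S ratios were tested with limma 3.58.1. The fits were tested on simulated data. Each library was a separate pool of brains, so p-values cover the spread between pools. Depth was 36563581 to 46745977 counts per library, and 1 TMM-scaled CPM stood for 35.8 to 48.1 counts.

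The members and lists were chosen with earlier results of these data known. Named members are those past a fold of 2 and their homeologs, the 8 largest changes per comparison with controls, and the most counted row of each role. Up to the 3 largest changes were named per list. Some of these are not reported here. Other genes were named after their values were seen. Alternatives were scaling by library size, DESeq2 1.42.0, no filter, 1 fit of all libraries, a replicate block, a term for replicates 4 and 5, replicates 1 to 3 alone, removal of the trend with gene span, and each library left out. Spans came from a RefSeq gene table of the same assembly, which matched 68 of the 81 members. A missing span was taken from the homeolog where it had one.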

Additional observations from a re-analysis of the deposited data

Results flagged for a closer look

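Of 69 sets of values (23 named members in 3 groups), 7 had a library far from the others of its group, where chance flags about 1 in 20 sets. Control replicate 4 was apart in 3 of them. It had 11.3 CPM of *maml3.S*, against 14.6 to 15.8 CPM in the other controls, 9.46 CPM of *notch2.L*, against 15.5 to 17.7 CPM, and 102 CPM of *hes6.S*, against 87.5 to 89.7 CPM. *eef1a2* CRISPant replicate 2 was apart in 2. It had 95.2 CPM of *hes6.S*, against 121 to 130.1 CPM in the other *eef1a2* CRISPants, and 25.8 CPM of *hey1.S*, against 29.8 to 31.3 CPM. Control replicate 5 had 5.25 CPM of *maml2.L*, against 4.33 to 4.49 CPM in the other controls, and control replicate 2 had 3.36 CPM of *maml2.S*, against 1.88 to 2.16 CPM. Without control replicate 4 the lower and higher counts in *ap3b2* CRISPants were 21 and 22, as with it, against 23.7% and 21.6% of all genes. The members called were not all the same, as *dll4.S*, *hes3.S* and *hes5.7.L* lost their calls. In *eef1a2* CRISPants 22 members were then lower, in place of 21, and 21 Hes members higher, in place of 24. The calls of *hes2.L*, *hes3.L* and *hes5.8.S* were among those lost there.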

How the results depend on the processing

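In *ap3b2* CRISPants against controls, a replicate block gave 6 lower members (none of them Hes) and 14 higher (13 Hes), library-size scaling 14 higher (13 Hes), and the trend with gene span removed 13 higher (9 Hes). The block called 16.8% of all genes lower and 11.7% higher. Its 6 lower among the 43 members outside Hes were thus not above the share over all genes. With library-size scaling higher calls made up 32.3% of all calls over all genes. With the span trend removed 19.1% of all genes were higher. Replicates 1 to 3 alone gave 6 lower members beyond a fold of 2. Leaving out 1 library at a time gave 10 to 25 lower members (none Hes), 14 to 28 higher, 13 to 25 Hes higher, and 2 to 4 lower beyond a fold of 2. Over all genes these refits called 16.9% to 27.5% lower and 11.6% to 26.7% higher. In *eef1a2* CRISPants, replicates 1 to 3 alone gave 7 lower members (none Hes) and 3 higher (2 Hes), the trend with span removed gave 16 higher (11 Hes), and no filter gave 1 higher beyond a fold of 2 (*hes7.2.L*, under 0.5 CPM throughout). Over all genes 5.54% were lower and 9.53% higher with replicates 1 to 3 alone, and 18.3% were higher without the span trend. Leaving out 1 library gave 12 to 23 lower (none Hes), 21 to 28 higher, 20 to 25 Hes higher, and 2 to 5 lower beyond a fold of 2. Over all genes these *eef1a2* refits called 16.3% to 24% lower and at most 22.6% higher. Both upper values were those without *eef1a2* replicate 2. Between the CRISPant groups the counts were 0 under every setting run, and the 23 named members changed sign in 43 of 391 refits without 1 being called. Removing the trend with span turned the sign of *maml3.L* (0.056), *dll1.S* (-0.036), *dtx1.S* (0.026) and *hey1.S* (-0.115) in *ap3b2* CRISPants, and of *maml3.L* (0.117), *notch1.L* (0.0079) and *hey1.S* (-0.111) in *eef1a2* CRISPants. There *dtx1.S* also turned with library-size scaling (-0.0098) and replicates 1 to 3 alone (-0.0087). None of these passed the threshold after turning. The cause was not tested. Same-numbered libraries did not regularly deviate together (correlations of -0.18 to 0.31 in *ap3b2* and -0.31 to 0.40 in *eef1a2* CRISPants against controls). Between the CRISPant groups the correlations were -0.12 to 0.61, the highest for replicate 4. The numbers were not taken as pairs in the main fit, although replicates 4 and 5 shared the split on the second principal component. In *eef1a2* CRISPants the replicate block gave 19 lower and 24 higher members, against 21.7% of all genes lower and 18.2% higher. Near 1 CPM, as for *hes2.L*, *rbpj.S* and *dtx3l.L*, low counts and the spread between libraries limit what can be seen.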
